A study of Mus musculus with 6 samples.

Results

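Glutathione transferases were examined in whole mouse lung 14 days after bleomycin. The family was represented by 10 genes given as a list: the alpha-class genes Gsta3 and Gsta4, the mu-class genes Gstm1, Gstm2 and Gstm5, the omega-class gene Gsto1, the theta-class genes Gstt1 and Gstt3, the kappa-class gene Gstk1 and the microsomal gene Mgst1. All 10 were measured, of 12393 genes with a named probe set, and they had 16 probe sets among them. Each gene was read through its brightest probe set, by the mean of all 6 arrays, and the 6 further probe sets of Gsta3, Gstm1, Gsto1 and Mgst1 are given beside it. The names were taken from the array's annotation.

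The bleomycin group was 3 lungs (D, E and F) of mice given bleomycin at 1 mg/kg in 50 µl of saline, and the saline group was 3 lungs (A, B and C) of mice given saline. All mice were labelled wild-type male C57BL/6J aged 8 to 10 weeks, and all lungs were taken at day 14. Bleomycin is a DNA-damaging drug that is widely used to bring about lung fibrosis in mice. The design text gives oropharyngeal delivery, while the array labels name the intratracheal route. Each lung was homogenised without the trachea and major airways and hybridised to its own Affymetrix MOE430A array, so the n of 3 per group counts mice.

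Glutathione transferases join the thiol of glutathione to electrophiles such as lipid peroxidation products and drug metabolites, which makes them soluble and ready for export. The cytosolic classes are dimeric enzymes, the kappa enzyme lies in mitochondria and peroxisomes, and the microsomal enzyme is an integral membrane protein. Many of their genes carry antioxidant response elements, through which the transcription factor Nrf2 acts. In lung they are abundant in airway epithelium, with club cells among the main sites of xenobiotic metabolism.

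The labelled tissue was in place: the type 2 cell gene Sftpc stood between 13.98 and 14.38 log2 units and the club cell gene Scgb1a1 between 14.03 and 14.42 on the 6 arrays. Array medians were 7.37 to 7.41, and correlations across probe sets were at least 0.986 within the bleomycin group and at least 0.987 within the saline group. On saline B, the X-inactivation transcript Xist stood at 11.40, and nowhere else above 7.88. The genes Eif2s3y and Kdm5d of the Y chromosome were at 4.05 and 4.58 there, against at least 7.23 and 6.82 elsewhere, so these genes go against that array's label of a male mouse. As a measure of RNA quality, the Actb control signal at the 3-prime end exceeded that at the 5-prime end by 1.18 ± 0.12 log2 units in bleomycin and 1.48 ± 0.30 in saline lungs (SD over 3 lungs). For Gapdh the excess was 0.96 ± 0.15 in bleomycin and 1.24 ± 0.32 in saline lungs (SD over 3 lungs). An exact permutation test, two-sided, gave p = 0.3 for both, where 0.1 is the smallest it can give.

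None of the 10 glutathione transferases, read by its brightest probe set, differed between bleomycin and saline lungs at the study-wide threshold. Differences are bleomycin minus saline on the log2 scale with the moderated standard error (SE) of limma, and a gene was called at a Benjamini-Hochberg adjusted p under 0.05 over all probe sets. By this rule 0 of 10 were called higher, against 3.70% of all genes, and 0 of 10 called lower, against 1.90%. At an unadjusted p under 0.05, 3 of 10 were lower (Gsta3, Gstm2 and Gstk1), against 11.0% of all genes, and 0 were higher, against 11.7%. The differences ran between -0.43 and 0.32, 7 below 0 and 3 above, with a median of -0.25, against -0.04 over all genes. Of all 12393 genes, 7060 had a difference below 0. On the brightest probe sets, all 10 intervals of 95% lay within a 2-fold difference in either direction, with -0.82 as the lowest bound and 0.75 as the highest. The interval of the dimmer Gsta3 probe set, -1.14 to -0.37, reached beyond 2-fold. A p that misses the threshold does not show equal levels. The intervals of Gsta3, Gstm2 and Gstk1 lay below 0, but intervals are not adjusted for the number of probe sets. They therefore restate the unadjusted p of these genes and add no separate evidence.

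**Figure D1:**
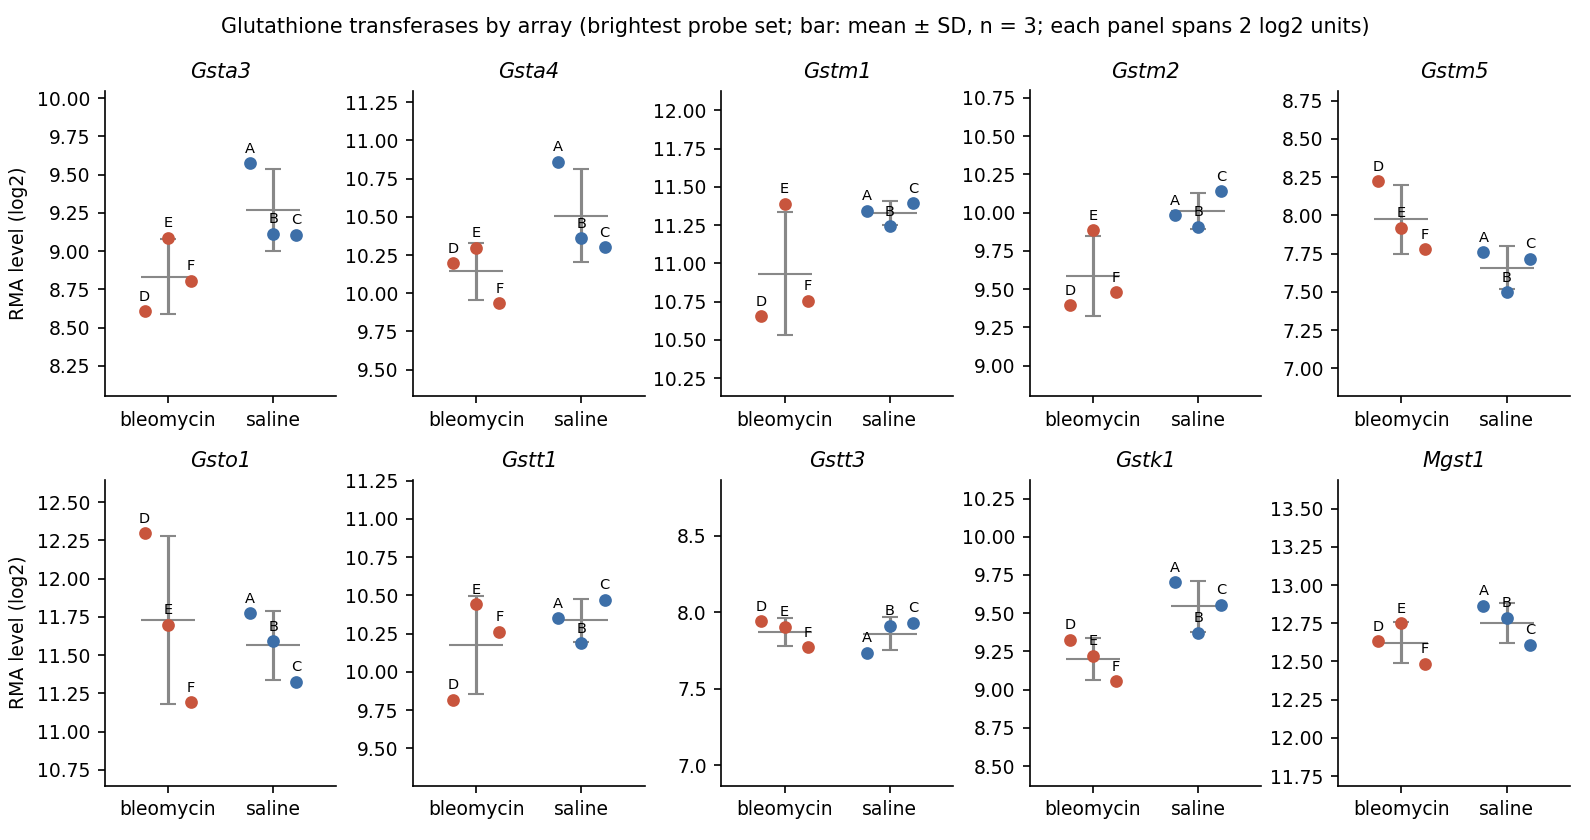
Log2 level of each gene's brightest probe set on every array (bleomycin D, E and F at the left of each panel, saline A, B and C at the right), with the mean ± SD of 3 arrays as a grey bar. Gstm1 and Gstm2 were low on bleomycin D and F and near the saline arrays on bleomycin E, and Gsto1 spread most among the bleomycin arrays.

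The alpha class encodes enzymes that detoxify aldehydes and epoxides, and its Gsta3 was the only one of the 10 genes with a called probe set. Gsta3, whose mouse enzyme conjugates aflatoxin epoxide, stood at 8.61, 9.09 and 8.81 log2 units on bleomycin D, E and F, against 9.58, 9.11 and 9.11 on saline A, B and C. The groups did not overlap, but only 0.02 lay between bleomycin E and saline C. The difference was -0.43 ± 0.17 (SE, adjusted p = 0.192), a 0.741-fold level with a 95% interval of 0.565 to 0.973. Without saline A it was -0.28 (adjusted p = 0.333). Its dimmer probe set, which averaged 7.17 ± 0.29 in bleomycin and 7.93 ± 0.21 in saline lungs (SD, n = 3 each), fell by 0.76 ± 0.17 (SE, adjusted p = 0.0429). That call was kept in 1 of 6 fits with an array left out, the one without bleomycin E (adjusted p = 0.0248). It was lost when A (0.116), B (0.0566) or C (0.107) of the saline lungs or D (0.106) or F (0.13) of the bleomycin lungs was left out. Both probe sets lay below saline, so they differed in size and not in sign. In bulk tissue, fewer cells of a type and less RNA per cell cannot be told apart.

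Gsta4 encodes the enzyme with high activity toward 4-hydroxynonenal, an aldehyde from oxidised lipids. It stood at 10.20, 10.30 and 9.93 on bleomycin D, E and F, against 10.86, 10.36 and 10.30 on saline A, B and C. The groups did not overlap, with 0.0053 between bleomycin E and saline C, and saline A stood apart from the other 2 saline lungs. The difference was -0.37 ± 0.17 (SE, adjusted p = 0.265), and without saline A it was -0.19.

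Promoter windows are shown for Gsta3, Gstm2 and Gstm5, since these members had the largest differences below 0 and the largest above 0. They are the RefSeq bases from 250 before the annotated start up to it on GRCm38.p6: chr1:21240335-21240584 on the plus strand for Gsta3, chr3:107986421-107986670 on the minus strand for Gstm2, and chr3:107895604-107895853 on the plus strand for Gstm5. Each is printed 5′ to 3′ on the gene's strand, with matches to the antioxidant response element core TGACNNNGC in capitals.
Gsta3: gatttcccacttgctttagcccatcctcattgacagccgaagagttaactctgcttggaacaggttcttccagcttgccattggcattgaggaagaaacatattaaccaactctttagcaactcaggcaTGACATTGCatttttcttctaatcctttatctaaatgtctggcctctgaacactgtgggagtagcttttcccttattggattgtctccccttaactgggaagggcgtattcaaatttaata
Gstm2: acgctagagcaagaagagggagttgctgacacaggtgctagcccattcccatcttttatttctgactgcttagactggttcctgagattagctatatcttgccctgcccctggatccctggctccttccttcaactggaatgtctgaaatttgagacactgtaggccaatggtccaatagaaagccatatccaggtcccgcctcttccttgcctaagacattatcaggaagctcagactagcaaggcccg
Gstm5: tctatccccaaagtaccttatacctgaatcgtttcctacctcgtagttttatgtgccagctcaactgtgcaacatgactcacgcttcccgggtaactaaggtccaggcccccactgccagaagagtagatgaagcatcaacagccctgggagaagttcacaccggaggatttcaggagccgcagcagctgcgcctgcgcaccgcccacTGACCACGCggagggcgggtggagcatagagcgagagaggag
The core was searched on both strands of windows from 250 bases before to 50 after each start. A match was found in 3 of the 9 genes with a window: Gsta3, 121 bases before the start, Gstm5, 42 bases before it, and Mgst1, on the opposite strand, in 1 of its 2 windows. Of all 27025 genes with a window, 14% held a match. By window, 3 of the 12 windows of these genes held a match, against 12.4% of all 32851. The 3 genes with a match had differences of -0.43, 0.32 and -0.13, so they lay on both sides of 0. These matches are letters in a window and were not tested as binding sites. Gsta4 had no window in the table.

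The mu class, which conjugates a wide range of electrophiles, was divided in direction among the 3 genes. Gstm1 stood at 10.65, 11.39 and 10.75 on bleomycin D, E and F, against 11.34, 11.24 and 11.39 on saline A, B and C. Bleomycin D and F lay below every saline lung, while E lay among them, so the SD was 0.40 in bleomycin and 0.08 in saline lungs (n = 3 each). The difference was -0.39 ± 0.19 (SE, adjusted p = 0.271). Without bleomycin E it was -0.62 and passed the threshold (adjusted p = 0.0409), the only call among the 10 genes in any fit with an array left out. Without bleomycin D it was -0.25 (adjusted p = 0.552). The other 3 probe sets of Gstm1 differed by -0.31, -0.41 and -0.47, with adjusted p of 0.39, 0.381 and 0.269. On all 4 probe sets, bleomycin D and F were the lower bleomycin lungs.

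Gstm2 had the smallest p of the 10 genes, ranking 1777 among the 12393. It stood at 9.40, 9.88 and 9.48 on bleomycin D, E and F, against 9.98, 9.91 and 10.14 on saline A, B and C. The groups did not overlap, though bleomycin E was only 0.02 below saline B. The difference was -0.42 ± 0.15 (SE, adjusted p = 0.148), a 0.745-fold level with a 95% interval of 0.590 to 0.942. Without bleomycin E the difference was -0.57 (adjusted p = 0.0588).

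Gstm5, a mu enzyme known from brain and testis in the mouse, was the only member whose bleomycin lungs all lay above the saline lungs. It stood at 8.22, 7.92 and 7.78 on bleomycin D, E and F, against 7.76, 7.50 and 7.72 on saline A, B and C, so bleomycin F was only 0.02 above saline A. The difference was 0.32 ± 0.14 (SE, adjusted p = 0.243), a 1.25-fold level with a 95% interval of 0.995 to 1.56. Without bleomycin D it was 0.19 (adjusted p = 0.521).

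The mu genes lie side by side on chromosome 3, and all 7 in the RefSeq annotation were measured. In that order the differences were 0.32 for Gstm5, -0.29 for Gstm7, -0.11 for Gstm6, -0.39 for Gstm3, -0.42 for Gstm2, -0.39 for Gstm1 and -0.04 for Gstm4. None of the 7 was called, with adjusted p of 0.148 to 0.89. Gstm5, at one end and on the plus strand, lay above 0, and the 6 genes on the minus strand lay below it. The differences of Gstm4 (SE 0.12) and Gstm6 (SE 0.16) were smaller than their SE, and strand and position were not tested. Mu transcripts are close in sequence, and the probe set names ending in _x_at or _s_at (2 of 4 for Gstm1 and the brighter one of Gstm3) mark probes that can bind related transcripts, so signal between these genes may be shared.

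**Figure D2:**
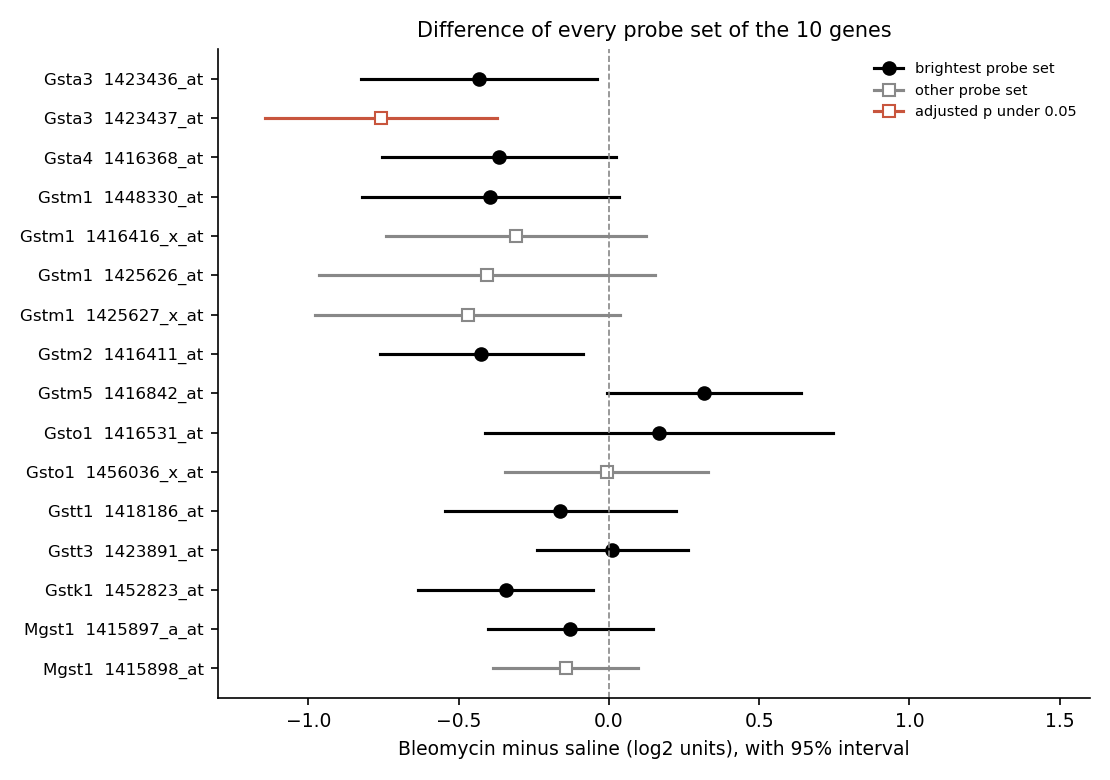
Difference of bleomycin minus saline in log2 units for all 16 probe sets of the 10 genes, with the 95% interval of limma as a line. The filled circle marks the brightest probe set of a gene, the open square a further one, and the dimmer Gsta3 probe set, at -0.76, is the only one with an adjusted p under 0.05.

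Gsto1 encodes the omega enzyme, which has a cysteine in its active site, reduces dehydroascorbate and removes glutathione from proteins. It stood at 12.30, 11.70 and 11.19 on bleomycin D, E and F, against 11.77, 11.59 and 11.33 on saline A, B and C. Bleomycin D was the highest of the 6 lungs and bleomycin F the lowest, and the SD of 0.55 in bleomycin lungs was the largest of the 10 genes (0.22 in saline, n = 3 each). The difference was 0.17 ± 0.25 (SE, adjusted p = 0.749), and without bleomycin D it was -0.12 (adjusted p = 0.808). It was 0.43 without bleomycin F, 0.27 without saline A and 0.05 without saline C. The second probe set did not share this order: bleomycin D (10.63) lay below bleomycin E (10.83), saline A (10.68) and saline B (10.71). Its SD in bleomycin lungs was 0.24, and it differed by -0.01 ± 0.15 (SE, adjusted p = 0.984).

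The theta enzymes act on halogenated alkanes and other small electrophiles. Gstt1 stood at 9.82, 10.44 and 10.26 on bleomycin D, E and F, against 10.35, 10.19 and 10.47 on saline A, B and C. Bleomycin D alone lay below the saline lungs, and without it the difference of -0.16 ± 0.17 (SE, adjusted p = 0.623) became 0.02. It was -0.30 without bleomycin E and -0.09 without saline C. Gstt3, its neighbour on chromosome 10, had the difference nearest to 0 of the 10 genes. It stood at 7.94, 7.91 and 7.77 on bleomycin D, E and F, against 7.74, 7.91 and 7.93 on saline A, B and C. Its difference was 0.01 ± 0.11 (SE, adjusted p = 0.964), with a 95% interval of -0.24 to 0.26.

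Gstk1, the kappa enzyme, resembles bacterial disulfide oxidoreductases more than the cytosolic transferases. It stood at 9.33, 9.22 and 9.05 on bleomycin D, E and F, against 9.70, 9.37 and 9.56 on saline A, B and C. The groups did not overlap, with bleomycin D 0.05 below saline B, and here bleomycin E was lower than D. The difference was -0.34 ± 0.13 (SE, adjusted p = 0.168), a 0.788-fold level with a 95% interval of 0.644 to 0.964.

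Mgst1, a membrane enzyme that also reduces lipid hydroperoxides, had a probe set brighter than 99.4% of those tested. It stood at 12.63, 12.75 and 12.49 on bleomycin D, E and F, against 12.86, 12.79 and 12.61 on saline A, B and C. The groups overlapped, and the difference was -0.13 ± 0.12 (SE, adjusted p = 0.581), with a 95% interval of -0.40 to 0.15. It was -0.06 without bleomycin F, -0.07 without saline A and -0.20 without saline C. Its second probe set, dimmer than most (percentile 7.1), differed by -0.14 ± 0.11 (SE, adjusted p = 0.475).

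The bleomycin lungs differed among themselves across the family. Bleomycin D lay below all 3 saline lungs for 6 of the 10 genes, bleomycin E for 4 and bleomycin F for 7. Shares over all genes were not computed for single arrays, so values by single array describe the 10 genes only. Relative to the saline mean, the median over the 10 genes was -0.26 on bleomycin D, 0.02 on bleomycin E and -0.41 on bleomycin F. It was 0.11 on saline A, -0.12 on saline B and 0.04 on saline C. Bleomycin E had the highest bleomycin value for 6 genes and the lowest for 0, and bleomycin F the lowest for 6 and the highest for 0. For 4 of 10 genes the bleomycin lungs all lay below the saline lungs (Gsta3, Gsta4, Gstm2 and Gstk1), against 14.6% of all genes, and for 1 (Gstm5) they all lay above, against 13.3%. Without saline B, the array that goes against its label, all 10 differences kept their sign and 0 were called (adjusted p 0.139 to 0.916).

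Markers of several cell types differed on the same arrays. Of 10 club cell genes 4 were called lower and 0 higher, against 1.90% of all genes called lower. The 4 were Cyp2f2, Chad, Ces1d and Fmo2, of which Fmo2 had the largest difference of the list (-1.24). Whether these 4 are particular to club cells was not tested. All 10 differences lay below 0, as did 7060 of the 12393 genes, and the median was -0.61, against -0.04 over all genes. Their mean level relative to saline was -0.73 on bleomycin D, -0.45 on E and -0.65 on F, against 0.17, -0.14 and -0.02 on saline A, B and C. Their summed level was 15.67 to 15.91 log2 units in bleomycin and 16.05 to 16.29 in saline lungs. The secretoglobin genes Scgb1a1 and Scgb3a2, the main club cell products, each differed by -0.19 (adjusted p = 0.379 and 0.352). Scgb1a1 lay near the highest value on the arrays (14.42), and whether signal was limited there was not tested. The 9 type 2 cell genes had means of -0.41, 0.03 and -0.12 on bleomycin D, E and F, with 0 called in limma and 1 lower at an unadjusted p under 0.05. The 8 type 1 cell genes had -0.60, -0.06 and -0.17, with 1 called lower. The 4 ciliated cell genes had -0.44, -0.39 and -0.55, with 1 called lower. Of 10 endothelial genes 2 were called lower and 0 higher, 9 differences lay below 0, and the means were -0.49, -0.39 and -0.29, so the lower marker levels were not limited to epithelial lists. Fibroblast genes lay on both sides: 5 of 10 were called higher and 2 lower (Inmt and Tcf21). Of 10 macrophage genes 6 were called higher and 0 lower, against 3.70% of all genes called higher, with means of 1.54, 1.33 and 1.24 on bleomycin D, E and F. The smooth muscle, neutrophil and T cell lists had 0 called in limma, with 2, 1 and 0 genes at an unadjusted p under 0.05, and of 6 B and plasma cell genes 1 was called higher. The part of these cell types in the transferase levels was not tested. The 7 hepatocyte genes, from a tissue rich in these enzymes, averaged 5.83 to 5.99 log2 units in bleomycin and 5.95 to 6.10 in saline lungs, with 0 called in limma and 1 lower at an unadjusted p under 0.05.

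**Figure D3:**
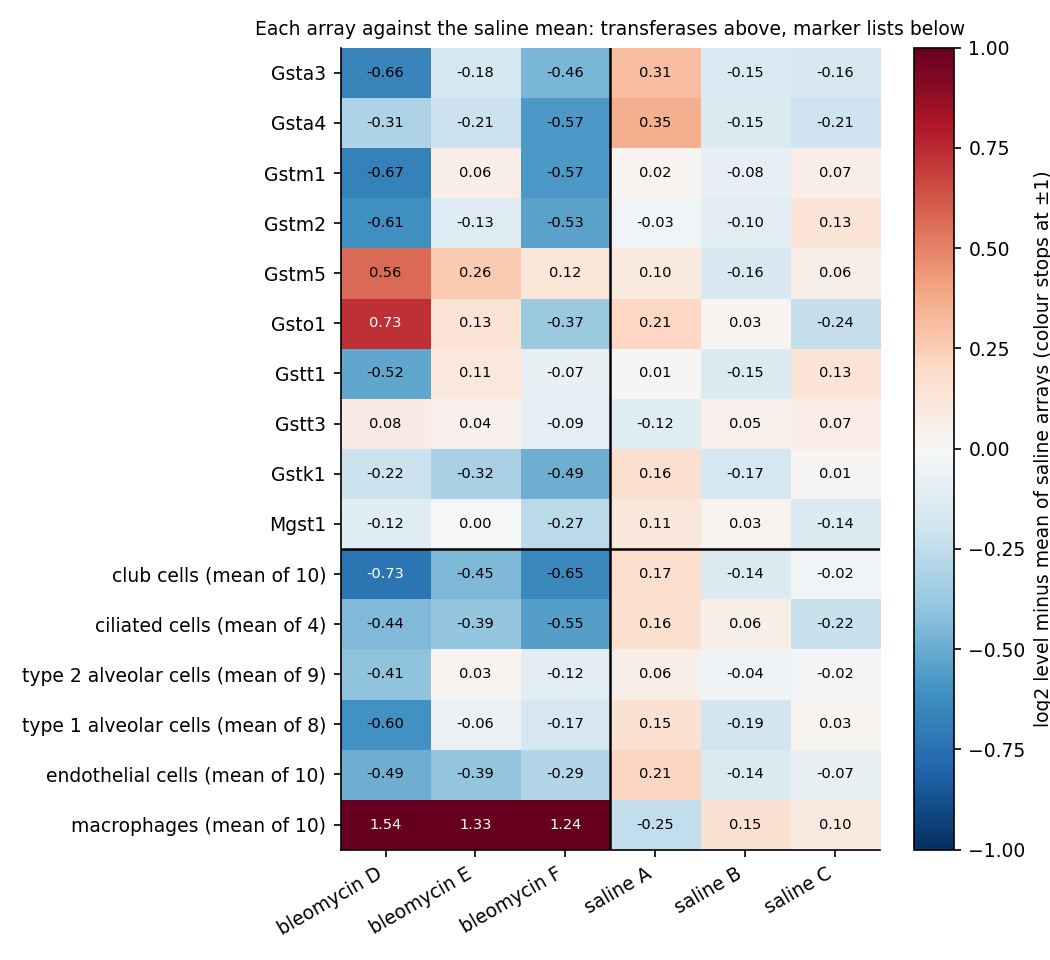
Log2 level on each array minus the mean of the saline arrays, for the 10 transferases (above the line) and for the mean of 6 marker lists (below it), with bleomycin arrays at the left. Colour stops at 1 log2 unit. Gsta3, Gstm1 and Gstm2 were lowest on bleomycin D and F, and the club cell mean was negative on all 3 bleomycin arrays.

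The genes whose profile was most like that of Gstm2, the member with the largest absolute moderated t, were Pkp2, Kcnmb2, Etl4, Ttpa and Man2c1. Likeness was the root mean square distance between profiles centred on their own mean over the 6 arrays, and it was 0.05 to 0.06 log2 units. Pkp2, which encodes the desmosomal protein plakophilin 2, was the nearest, at 8.94, 9.45 and 9.02 on bleomycin D, E and F and 9.66, 9.55 and 9.74 on saline A, B and C. It shared the order of the bleomycin lungs with Gstm2, and its difference was -0.51 ± 0.15 (SE, adjusted p = 0.0925). This order and sign were largely fixed by choosing the gene for likeness on these same arrays. None of the 5 was called. Ttpa encodes the transfer protein of alpha-tocopherol, and Man2c1 a cytosolic mannosidase.

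Other genes of glutathione metabolism were described by 5 lists, in which 86 of 106 genes were measured. Of these 86, 10 were called higher and 1 lower, against 3.70% and 1.90% of all genes. Their median difference was 0.05. How far these lists differ from the 10 transferases was not tested.

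Of 16 further transferases and relatives in the list, 2 rose and 0 fell, and the list median was -0.04. Both that rose serve eicosanoid synthesis. So do Ltc4s, Ptges and Ptges2 of the same list, which were not called (adjusted p = 0.318, 0.267 and 0.789). Hpgds, the sigma-class transferase that makes prostaglandin D2, stood at 6.65, 6.56 and 6.41 on bleomycin D, E and F, against 5.79, 5.92 and 5.99 on saline A, B and C. All bleomycin lungs were above all saline lungs, and the rise was 0.64 ± 0.11 (SE, adjusted p = 0.0198). This probe set was dim, below the array medians of 7.37 to 7.41, and how near it was to background was not tested. Alox5ap, a membrane protein of the microsomal transferase superfamily that presents arachidonate to 5-lipoxygenase, stood at 11.87, 11.42 and 11.61 on bleomycin D, E and F, against 10.49, 11.03 and 10.96 on saline A, B and C. The groups did not overlap, and it rose by 0.81 ± 0.17 (SE, adjusted p = 0.0386). Both are known from myeloid cells, whose macrophage markers were higher as given above, and that link was not tested. With an array left out, Hpgds passed without saline C (0.0462) or bleomycin F (0.0493), with an adjusted p of at most 0.069 in the others. Alox5ap passed only without bleomycin E (0.0421), with at most 0.11. Gsta2, an alpha gene outside the 10, stood at 6.25, 7.75 and 6.18 on bleomycin D, E and F, against 7.72, 7.12 and 7.48 on saline A, B and C. Bleomycin E was thus the highest of the 6 lungs, and the difference was -0.71 ± 0.38 (SE, adjusted p = 0.327).

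Of 19 genes of glutathione synthesis, recycling and turnover, 3 rose and 0 fell, with a median of 0.10. Lap3, an aminopeptidase that cleaves cysteinylglycine, stood at 9.78, 9.35 and 9.64 on bleomycin D, E and F, against 8.68, 8.66 and 8.52 on saline A, B and C. The groups lay well apart, and it rose by 0.97 ± 0.13 (SE, adjusted p = 0.00769), a call kept in all 6 fits with an array left out. Ggct, which cleaves gamma-glutamyl peptides, rose by 0.80 ± 0.14 (SE, adjusted p = 0.0213), a call lost without saline A (0.0783) or saline C (0.0652). The other of the 2 Ggct probe sets was not called. Pgd, which makes NADPH in the pentose phosphate pathway, rose by 0.64 ± 0.15 (SE, adjusted p = 0.0478). Of its other 3 probe sets 2 were called too, and this one passed only without bleomycin D (0.0452) when an array was left out, with at most 0.138 in the others. Gclc and Gclm, the subunits of the rate-limiting enzyme of glutathione synthesis, differed by 0.32 ± 0.17 and 0.10 ± 0.20 (SE, adjusted p = 0.317 and 0.808).

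Of 21 genes of glutathione- and thioredoxin-dependent reduction, 3 rose and 1 fell, with a median of 0.26. Glrx, which encodes the glutathione-dependent reductase glutaredoxin, stood at 9.81, 9.24 and 9.20 on bleomycin D, E and F, against 8.28, 8.33 and 8.59 on saline A, B and C. All bleomycin lungs lay above the saline lungs, and the rise was 2.02-fold (1.02 ± 0.18 log2 units, SE, adjusted p = 0.019). Its call was lost without saline A (0.0833) or saline B (0.0552). The other of the 2 Glrx probe sets was not called. Srxn1, the sulfiredoxin that repairs oxidised peroxiredoxins, rose 1.98-fold (adjusted p = 0.0243). That call was lost without saline A (0.0932), saline B (0.0658) or bleomycin F (0.0508). Of the 4 probe sets of Srxn1, only 1 other was called. Prdx2, a peroxiredoxin, rose by 0.50 ± 0.11 (SE, adjusted p = 0.0421) and Txnrd3, a thioredoxin and glutathione reductase, fell by 0.74 ± 0.17 (SE, adjusted p = 0.0459). Neither of these passed in any fit with an array left out (adjusted p 0.061 to 0.108 for Prdx2 and 0.061 to 0.124 for Txnrd3). The other of the 2 Prdx2 probe sets was not called, and of the 3 Txnrd3 probe sets 1 other was.

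Of 22 genes listed for Nrf2 and its further targets, 2 rose and 0 fell, with a median of 0.15. Hmox1, the haem oxygenase, stood at 9.08, 8.67 and 8.70 on bleomycin D, E and F, against 7.86, 7.37 and 7.74 on saline A, B and C. The groups lay apart, and it rose 2.24-fold (1.16 ± 0.17 log2 units, SE, adjusted p = 0.00881), in all 6 fits with an array left out. Akr1b8, an aldo-keto reductase, rose 2.31-fold (adjusted p = 0.017), a call lost without saline A (0.0682) or saline C (0.061). Nfe2l2, which encodes Nrf2 itself, differed by 0.21 ± 0.15 (SE, adjusted p = 0.468) and Nqo1, a quinone reductase often read as a Nrf2 target, by 0.19 ± 0.24 (SE, adjusted p = 0.702). Of the 8 genes of conjugate export and mercapturate formation, 0 rose and 0 fell in limma, and 0 had an unadjusted p under 0.05. Nat8, the acetyltransferase of mercapturate formation, had the largest difference of that list, -0.29 ± 0.14 (SE, adjusted p = 0.276).

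**Figure D4:**
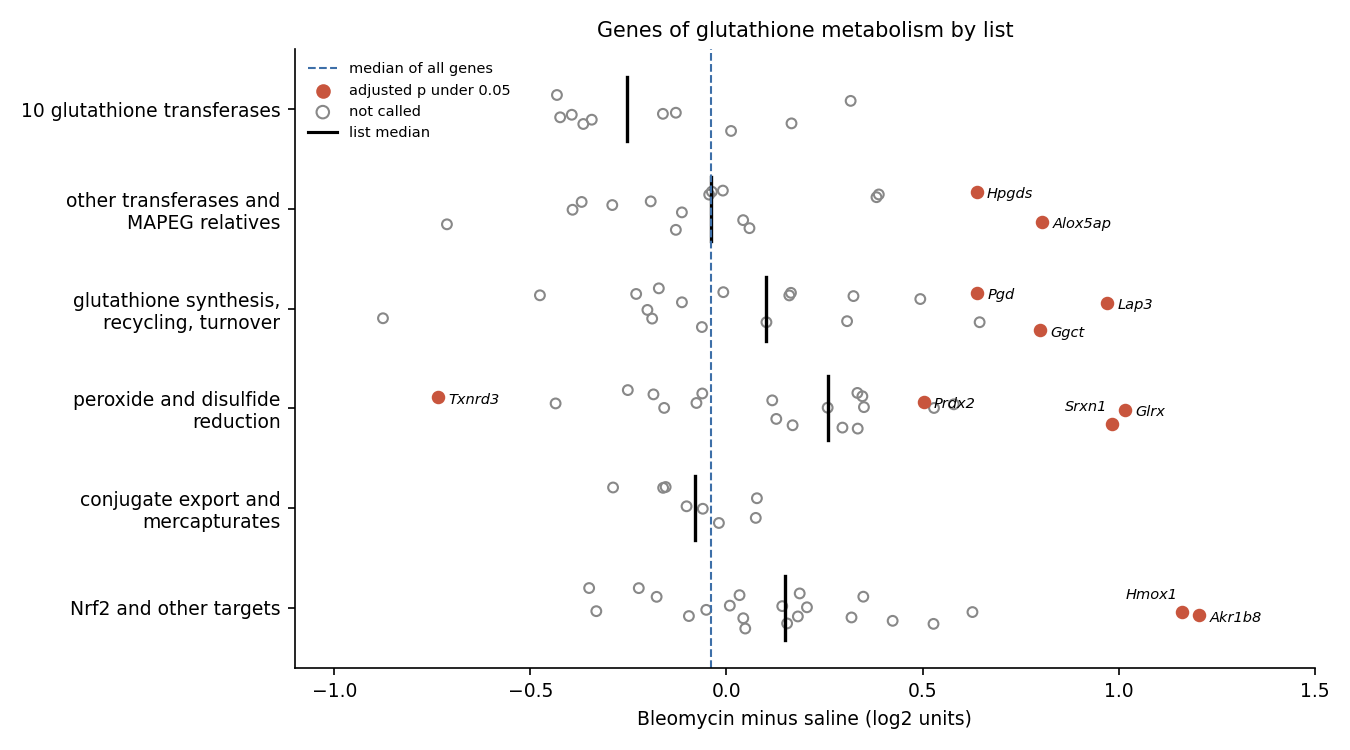
Difference of bleomycin minus saline in log2 units for each measured gene of the 10 transferases and the 5 further lists; filled points passed an adjusted p of 0.05, black bars are list medians and the dashed line is the median of all genes (-0.04). The 10 transferases hold no filled point, and 10 of the 11 named genes lie above 0.

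**Figure D5:**
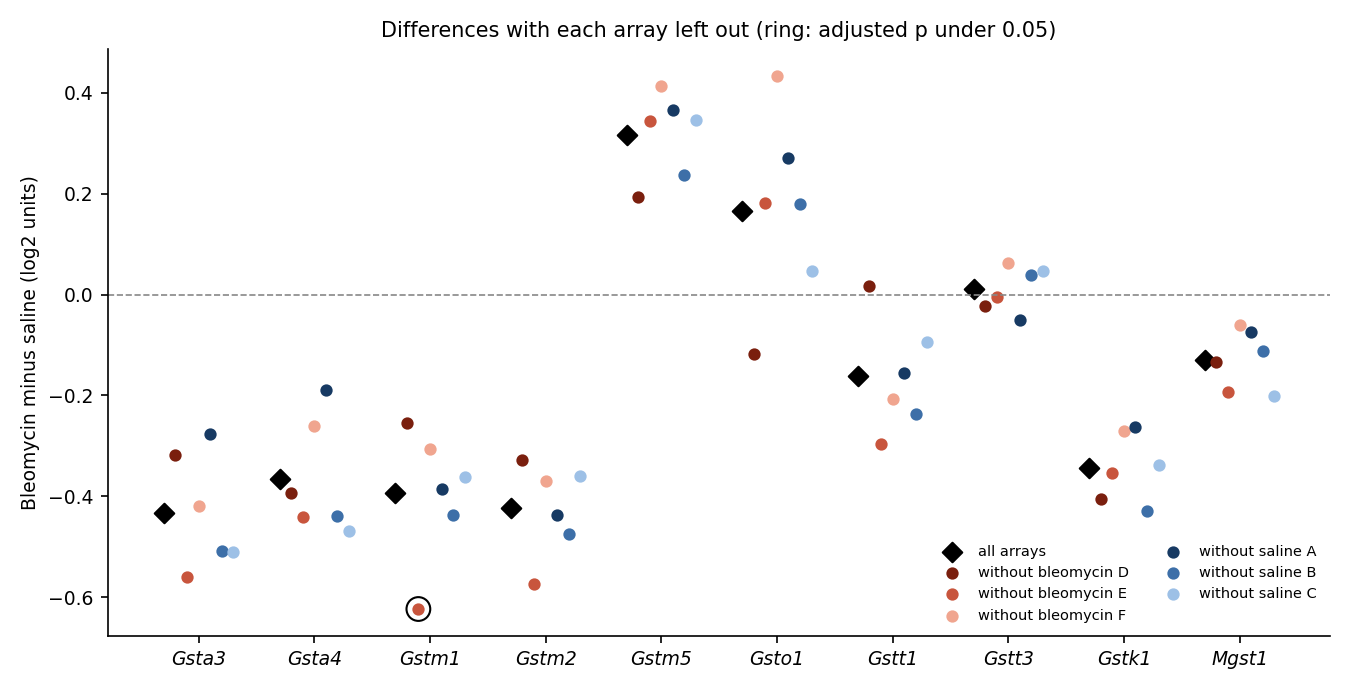
Difference of bleomycin minus saline in log2 units for each of the 10 transferases with all arrays (diamond) and with each array left out (circles). The ring marks the only value with an adjusted p under 0.05, Gstm1 at -0.62 without bleomycin E; Gsto1, Gstt1 and Gstt3 changed sign when bleomycin D was left out.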

How the data were processed

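Lung RNA of 6 mice was hybridised to Affymetrix MOE430A arrays. The authors deposited a log2 value for each probe set, made with RMA and quantile normalization as stated in the design text and, for RMA, in the submitters' processing notes. RMA merges the probes of a set into a single value. Neither a software version nor a probe set definition is given in these sources. The log2 base was read from the values (3.54 to 14.42). Scanner files and detection calls are not used here, so arrays allow no statement on background, and the number of arrays limits the precision.

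Of 22690 probe sets, 64 controls were left out and 22626 tested. Genes were named by the platform annotation in GEO. By Entrez ID, 20351 probe sets were matched to RefSeq's GRCm38.p6 annotation and took its symbol, whether or not it differed. A single symbol stood on 20380, several on 691 and none on 1555, and only single symbols were used. Bleomycin was compared with saline in limma 3.58.1 (R 4.3.3; lmFit, eBayes, no covariates), with Benjamini-Hochberg adjustment over all probe sets. Adjusted p-values in the text are limma's. The fit was tested on simulated data with known changes. No replicate letter is shared between groups, so no block was fitted. Figures were drawn with matplotlib 3.10.9. Promoter windows are RefSeq's for GRCm38.p6.

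The members and lists were chosen with earlier results of these data known. Named genes were all members, up to 6 called genes with the largest difference per list or the largest where none was called, the 5 nearest profiles, the first 2 of a marker list and 3 genes of the label check. Named outside this rule, after their values were seen, were Inmt, Tcf21, Gsta2, Gstm3, Gstm4, Gstm6, Gstm7, Gclc, Gclm, Nfe2l2 and Nqo1. So were the club cell genes Cyp2f2, Chad, Ces1d and Fmo2, and Ltc4s, Ptges and Ptges2. Alternatives covered filters, variance prior, array weights, scaling, choice of probe set, threshold and leaving out each array.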

Additional observations from a re-analysis of the deposited data

How the results depend on the processing

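None of the 10 transferases, read by 1 value per gene, was called in the fit with all arrays or under the alternatives to it other than leaving out arrays (a filter on dim probe sets, a trended robust prior, array weights, repeated quantile normalization, centring on ribosomal protein genes, other choices of probe set and a threshold of 0.01). With an array left out, the number called lower was 0 to 1 and called higher 0, the 1 being Gstm1 without bleomycin E. The median difference of the 10 ran between -0.33 and -0.17 with an array left out. The signs of Gsta3, Gsta4, Gstm1, Gstm2, Gstm5, Gstk1 and Mgst1 were the same under all 14 alternatives. Gsto1 was -0.02 with array weights and -0.12 without bleomycin D, Gstt1 was 0.02 without bleomycin D, and Gstt3 lay between -0.05 and 0.06, with neither sign called. All genes called were 143 higher and 20 lower at the threshold of 0.01, against 458 and 236, and 163 to 385 higher and 22 to 165 lower with an array left out. Other settings raised the counts: 599 higher and 341 lower with array weights, and 547 and 275 with the mean of a gene's probe sets. Genes of the 5 further lists called were 2 higher and 0 lower at 0.01, 0 lower with ribosomal centring, 2 lower with the mean of a gene's probe sets, and 2 to 7 higher and 0 to 1 lower with an array left out, where each fit has fewer arrays. Against 10 higher in the main fit, array weights gave 13 and the filter on dim probe sets 12. No paired analysis was possible because the groups share no replicate letter.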
